A study of Mus musculus with 3 samples.

Results

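The 7 genes described here encode the epithelial adhesion machinery for which Langerhans cells (LCs), the antigen-presenting cells resident in the epidermis, are known among immune cells: Epcam, Cdh1, Cldn1, Itgae, Ctnna1, Ctnnb1 and Ctnnd1. They were chosen by symbol from the 34289 features of the deposited lists, and all 7 were found. Their levels were read in LCs with and without RNA of Ccr7, the chemokine receptor that guides dendritic cells out of tissue, and in the keratinocytes to which LCs attach. Cells came from ear epidermis of male Cd1 mice and were profiled by droplet-based 3' single-cell RNA sequencing after trypsin separation of the sheet, removal of dead cells and magnetic LC enrichment. The untreated group had received only a depilatory cream (Nair). Mice of the croton oil group had been treated with an acetone, croton oil and olive oil mixture (croton oil is a plant irritant), and mice of the microneedle group with multiple microneedle punches. Epidermis of both treated groups was taken 48 hours after the first treatment. Each group was 1 library with no replicate, and the labels give neither the age nor the number of the animals, so no test between groups was possible. Intervals are at 95% and reflect counting error alone, not the spread between mice.

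An LC was a cell with at least 2% of its unique molecular identifiers (UMIs, each standing for 1 captured transcript) from the MHC class II genes Cd74, H2-Aa, H2-Ab1 and H2-Eb1 and at least 1 UMI of Cd207, which encodes langerin, or of Ccr7. A keratinocyte had at least 0.5% of its UMIs from Krt14, Krt5, Krt1 and Krt10. None of the 7 genes entered these rules. Ccr7-negative LCs numbered 8402 in the untreated, 4399 in the croton oil and 4993 in the microneedle library, Ccr7-positive LCs 25, 405 and 80, and keratinocytes 178, 209 and 92. Another 29, 11 and 1 cells met both rules and were set aside. The 3 matrices held 9876, 8241 and 6945 barcodes, of which 13 to 32 were shared between any pair of libraries, and median depths of 11623, 12509 and 16427 UMIs per cell. Most of the 8 LC markers on the list, and Krt14, Krt5, Krt1 and Krt10 of the 13 keratinocyte markers, are genes of these rules and so check nothing, and Epcam is one of the genes described here. The LC markers left were Mfge8, at 461, 2367 and 1205 CPM (UMIs per 1000000 UMIs of the class) in Ccr7-negative LCs of the untreated, croton oil and microneedle library, and Csf1r, at 304, 614 and 623 CPM. The keratinocyte markers outside the rule were all detected in the keratinocytes of each library.

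As background, E-cadherin (Cdh1) binds E-cadherin on neighbouring cells through calcium-dependent contacts. Its cytoplasmic tail holds beta-catenin (Ctnnb1) and p120-catenin (Ctnnd1), and alpha-catenin (Ctnna1) links beta-catenin to actin. EpCAM associates with claudins, among them claudin-1 (Cldn1), the main claudin of the epidermal tight junction. Integrin alpha E (Itgae, CD103), paired with beta 7 (Itgb7), is a receptor for E-cadherin. Loss of these contacts is known to accompany the departure of LCs from the epidermis, and Zeb and Snail proteins are known to repress Cdh1 through E-boxes in its promoter.

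The upstream sequences of 3 of the genes are shown because Zeb1 and Zeb2 RNA, described further on, was among the lists examined with them. Each is the 250 bases just before the first annotated base of the gene (GENCODE M39, GRCm39, no exon in the window), 5′ to 3′ along the gene, with the E-box CAGGTG or its reverse complement CACCTG in capitals.
Cdh1, chr8:107329691-107329940, plus strand: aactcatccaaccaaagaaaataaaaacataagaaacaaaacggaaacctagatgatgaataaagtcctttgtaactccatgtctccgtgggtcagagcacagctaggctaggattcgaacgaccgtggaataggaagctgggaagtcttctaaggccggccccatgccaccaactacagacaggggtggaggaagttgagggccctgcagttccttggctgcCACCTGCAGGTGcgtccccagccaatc
Epcam, chr17:87943157-87943406, plus strand: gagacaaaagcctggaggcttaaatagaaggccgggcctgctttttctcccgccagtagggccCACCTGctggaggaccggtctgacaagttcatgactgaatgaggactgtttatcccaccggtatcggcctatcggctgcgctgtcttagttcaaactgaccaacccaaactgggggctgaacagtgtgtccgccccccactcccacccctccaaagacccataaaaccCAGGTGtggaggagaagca
Cldn1, chr16:26190597-26190846, minus strand: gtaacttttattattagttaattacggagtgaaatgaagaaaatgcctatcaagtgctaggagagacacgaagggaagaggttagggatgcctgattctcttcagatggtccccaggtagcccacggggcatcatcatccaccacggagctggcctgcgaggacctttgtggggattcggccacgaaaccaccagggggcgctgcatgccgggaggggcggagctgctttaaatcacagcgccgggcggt
In Cdh1 the pair of E-boxes lay directly side by side, without overlap, and formed the palindrome CACCTGCAGGTG, whose first base was 27 bases before the gene. Epcam held 2 separate E-boxes, starting 187 and 19 bases before the gene, and Cldn1 held none. Of the other 4 genes, Itgae held 1 and the catenin genes none. Over 21757 windows of the same length before protein-coding genes, 17.7% held the E-box on either strand, and 3 windows, the one of Cdh1 included, held the 12-base palindrome. A match describes the letters of the window and not a bound site. The genes themselves span chr8:107329941-107396880 for Cdh1, chr17:87943407-87958557 for Epcam and chr16:26175392-26190596 for Cldn1.

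Levels are given as CPM: the UMIs of a gene summed over the cells of a class, per 1000000 UMIs of that class. A 3' assay counts 1 tag per transcript whatever its length, but genes may still be captured unequally, so each gene is compared with itself. In Ccr7-negative LCs Epcam stood at 1545 CPM without treatment, at 1199 CPM after croton oil and at 1485 CPM after microneedling. The croton oil library was the low one, and the microneedle library lay close to the untreated one at a ratio of 0.961 (0.954 to 0.968). Cdh1 stood at 382, 295 and 304 CPM, in the same order of libraries. Here both treated libraries were below the untreated one. Cldn1 stood at 480, 557 and 487 CPM, highest in the croton oil library. Itgae, the integrin chain that binds E-cadherin, was low throughout at 24.3, 38.2 and 37.3 CPM, with both treated libraries above the untreated one.

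The catenins were lower in both treated libraries than in the untreated one. Ctnna1, the actin-linking alpha-catenin, stood at 573, 286 and 485 CPM in the Ccr7-negative LCs of these 3 libraries, in the same order. Ctnnb1, which also carries Wnt signals to the nucleus, stood at 123, 72.6 and 85.7 CPM. Ctnnd1, the p120-catenin that holds cadherins at the membrane, stood at 69.3, 32.0 and 40.1 CPM. For each of the 3 the croton oil library had the lowest level and the microneedle library lay between.

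**Figure D1:**
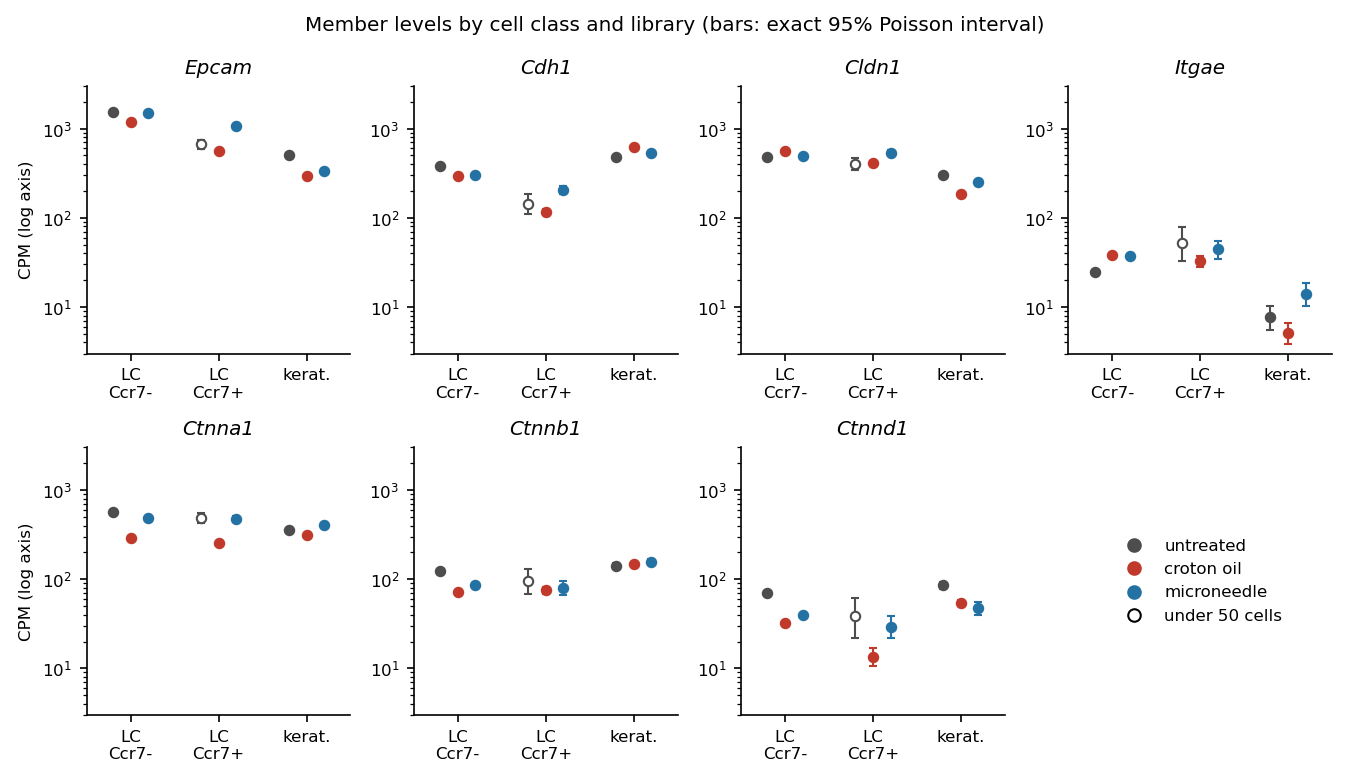
CPM (log axis) of each gene in Ccr7-negative LCs, Ccr7-positive LCs and keratinocytes of the untreated (grey), croton oil (red) and microneedle (blue) library; bars are exact 95% Poisson intervals and open points are classes under 50 cells. Epcam in Ccr7-negative LCs lies at 1199 to 1545 CPM, above its 297 to 504 CPM in keratinocytes, whereas Cdh1 lies at 295 to 382 CPM, below its 474 to 622 CPM in keratinocytes.

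The first comparison set croton oil against untreated Ccr7-negative LCs and asked which of the adhesion genes differed after irritation. The 3 catenins, Epcam and Cdh1 were lower and Cldn1 and Itgae higher. Changes are log2((CPM + 5)/(CPM + 5)) over genes with at least 20 CPM in either class, and a gene was called where the CPM ratio was at least 2. Ctnnd1 was lower at log2 −1.01 (ratio 0.461, 0.439 to 0.485) and Ctnna1 at −0.99 (ratio 0.4997, 0.491 to 0.508). These 2 of 7 members passed 2-fold downwards and none upwards, beside 7.33% of the 6820 genes tested that were called lower and 7.01% called higher. Ctnna1 sits on the threshold: its ratio interval crosses 0.5, and it was no longer called under 5 of the alternative settings. Ctnnb1 followed at −0.72 (ratio 0.591, 0.572 to 0.612), and Epcam and Cdh1 were each at −0.37, with ratios of 0.776 and 0.771. Cldn1 was higher at 0.21 (ratio 1.16, 1.15 to 1.18) and Itgae at 0.56 (ratio 1.57, 1.48 to 1.66). The median of the 7 changes was −0.37, against −0.04 over all genes tested. With TMM scaling the median of all genes moved to 0.05 and the called genes split into 611 higher and 395 lower, against 478 and 500 with CPM; median-of-ratios scaling gave 594 and 406. All 7 members kept their direction under both.

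Microneedle against untreated Ccr7-negative LCs gave smaller differences, and no member reached 2-fold. Ctnnd1 was lowest at log2 −0.72 (ratio 0.579, 0.556 to 0.602), followed by Ctnnb1 at −0.49 and Cdh1 at −0.32. Ctnna1, near 2-fold lower after croton oil, was at −0.24 (ratio 0.847, 0.836 to 0.857). Epcam was at −0.06 and Cldn1 at 0.02, whose sign turned under 3 alternative settings. Itgae was higher at 0.53 (ratio 1.54, 1.46 to 1.62). The background was 4.5% of 6685 genes called higher and 2.5% called lower, and the median over the members was −0.24 against 0.02 over all genes. Both treatment comparisons use the same untreated library, so that a deviation of that library would appear in both. Whether the treatments differ was not tested, since each is 1 library.

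**Figure D2:**
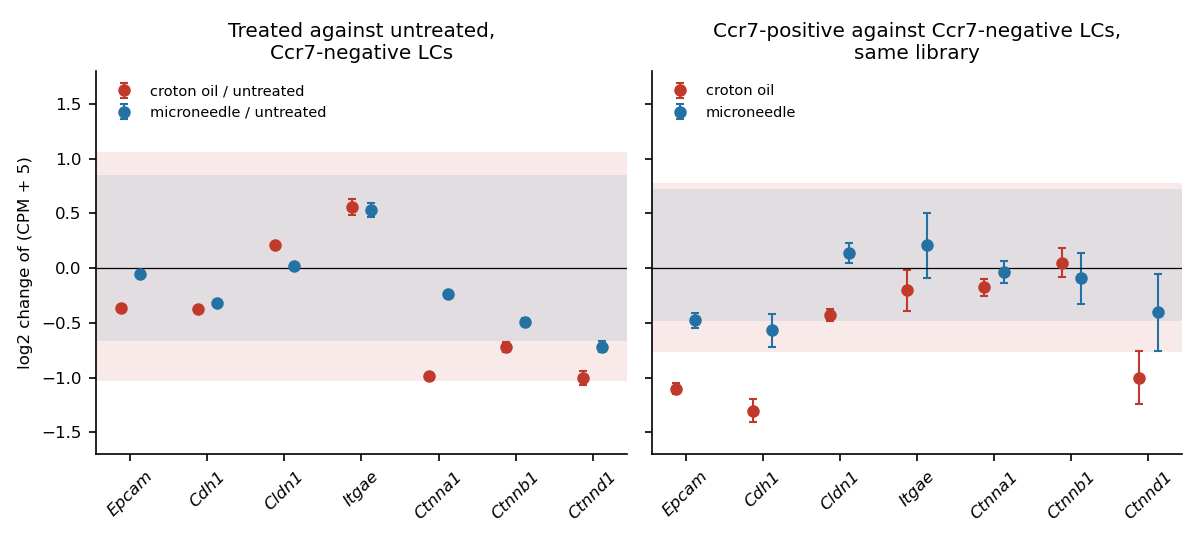
Log2 change of (CPM + 5) of the 7 genes; left, croton oil (red) and microneedle (blue) against untreated Ccr7-negative LCs; right, Ccr7-positive against Ccr7-negative LCs of the same library; bars are 95% counting intervals and the shaded bands hold the middle 90% of all genes tested. On the left Ctnnd1 lies lowest under both treatments, at −1.01 and −0.72, and on the right Cdh1 lies lowest, at −1.30 and −0.57.

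Other cell types also differed between the libraries. Summed over the 9 T cell markers, Ccr7-negative LCs held 4.58 CPM in the untreated, 62.7 in the croton oil and 17.6 in the microneedle library. The 5 neutrophil markers summed to 9.19, 57.6 and 28.1 CPM, and the 13 keratinocyte markers to 144, 183 and 76.0 CPM. The 6 monocyte or macrophage markers summed to 290, 280 and 279 CPM. Of the T cell markers Trbc1 was at 0 in the untreated library, as were S100a8 and Retnlg of the neutrophil markers, and all other markers were detected. T cells of the skin also express Itgae, which stood at 350 CPM in the 150 T cells of the croton oil library. With LCs holding at least 5 T cell UMIs left out, its change was still 0.48 after croton oil and 0.52 after microneedling. The 7 genes by which T cells were chosen stood at 0.319% to 0.773% of their T cell level in Ccr7-negative and at 0.951% to 2.96% in Ccr7-positive LCs of the croton oil library, and Itgae at 10.9% and 9.29%. The part of T cell RNA in the Itgae level was not tested.

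At the level of single cells, shares were compared after each cell was thinned to 3000 UMIs. Epcam was detected in 98.5% of untreated (98.2% to 98.8%), 90.8% of croton oil (89.9% to 91.7%) and 97.3% of microneedle (96.8% to 97.7%) Ccr7-negative LCs. Thinning left out 86, 25 and 62 shallower cells, and the unthinned shares were 99.8%, 99.0% and 99.8%. The median LC held 4, 3 and 4 Epcam UMIs among the 3000. Cdh1 was detected in 63.0%, 50.5% and 55.3%, and unthinned in 94.2%, 87.5% and 94.7%. Ctnna1 was detected in 77.2%, 53.3% and 69.1%, and unthinned in 98.2%, 91.0% and 97.7%. Cldn1 was detected in 67.9%, 74.4% and 68.6% and Itgae in 6.33%, 9.83% and 9.90%, both highest or near their highest in the croton oil library; unthinned, the shares were 93.8%, 96.8% and 96.0% for Cldn1 and 18.9%, 29.7% and 34.8% for Itgae. In neutrophils, which should lack Epcam, 2.75% of 109 croton oil and 6.42% of 265 microneedle cells held an Epcam UMI after thinning, from median depths before thinning of 3210 and 3328 UMIs, against 12935 and 17464 in the Ccr7-negative LCs. In T cells the share was 18.4% of 141 croton oil (12.4% to 25.8%) and 25% of 16 microneedle cells (7.27% to 52.4%), from median depths of 6570 and 9564 UMIs. MHC class II genes stood at 1.504% to 3.87% and 3.02% to 3.98% of the LC level in these neutrophils, and at 16.6% to 21.4% and 22.8% to 28.4% in these T cells. The shares in Ccr7-negative LCs lay above both. Single Epcam UMI counts of Ccr7-negative LCs formed 1 broad peak in each library.

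**Figure D3:**
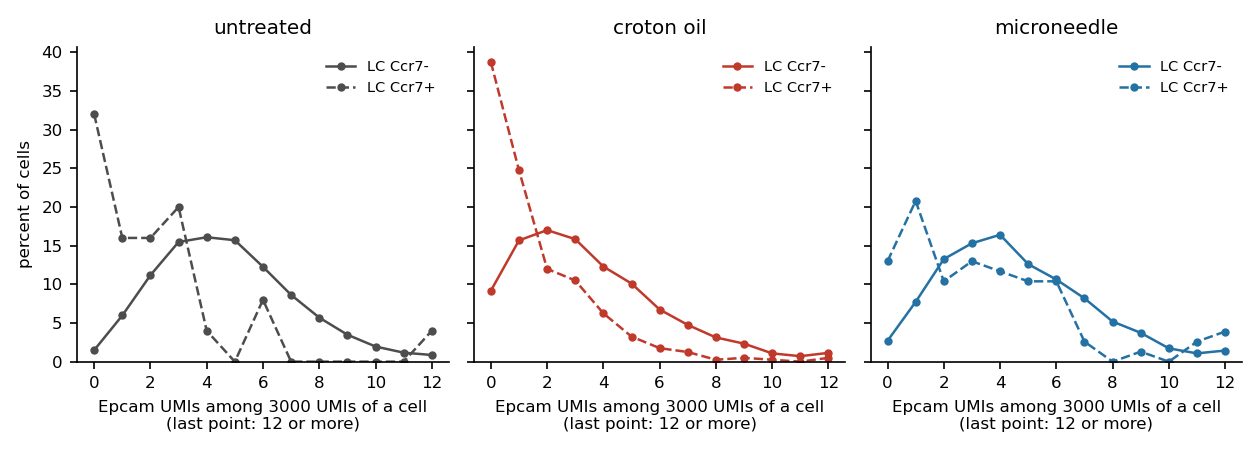
Percent of cells (y) by number of Epcam UMIs among 3000 UMIs drawn from each cell (x; the last point is 12 or more) in Ccr7-negative (solid) and Ccr7-positive (dashed) LCs of each library. Among Ccr7-negative LCs 1.49% of untreated cells had no Epcam UMI; the untreated Ccr7-positive curve holds 25 cells only.

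The second comparison set Ccr7-positive against Ccr7-negative LCs within a library, since Ccr7 marks LCs in the state that leaves the epidermis. Cdh1 and Epcam, which form contacts at the cell surface, and Ctnnd1 were lower in Ccr7-positive LCs, while Ctnnb1 and Ctnna1 lay nearer to their level in Ccr7-negative LCs, except that Ctnnb1 was at −0.65 in the microneedle library, and Ctnnd1 there at −0.03, after thinning to 3000 UMIs. In the croton oil library Cdh1 stood at 116 CPM in Ccr7-positive and 295 CPM in Ccr7-negative LCs, a log2 change of −1.30 (ratio 0.395, 0.366 to 0.426). Epcam stood at 556 and 1199 CPM, a change of −1.10 (ratio 0.464, 0.448 to 0.481). Ctnnd1 stood at 13.5 and 32.0 CPM, a ratio of 0.421 (0.333 to 0.527). These 3 members were called lower and none higher, beside 3.4% of 6538 genes called lower and 4.19% called higher. Of the 3, Ctnnd1 passed the 20 CPM minimum through Ccr7-negative LCs alone, so it could only be called lower. Ctnnd1 and Epcam were below 2-fold without doublet removal, with changes of −0.72 and −0.87, and Cdh1 was then at −1.15. After thinning to 3000 UMIs Ctnnd1 was not called either, at means of 0.0475 UMIs in Ccr7-positive and 0.093 in Ccr7-negative LCs.

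The other members of the croton oil library differed less with Ccr7. Cldn1 was at −0.43 (413 against 557 CPM) and Ctnna1 at −0.17 (253 against 286 CPM). Ctnnb1 was at 0.05 (75.3 against 72.6 CPM), with a ratio interval of 0.939 to 1.14. Itgae was at −0.20, and at −0.75 once LCs with at least 5 T cell UMIs were left out. The T cell markers summed to 224 CPM in these Ccr7-positive LCs, against 62.7 CPM in the Ccr7-negative ones. After thinning, 61.3% of Ccr7-positive LCs (56.3% to 66.1%) held an Epcam UMI and 21.0% (17.1% to 25.3%) a Cdh1 UMI.

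In the microneedle library, with 80 Ccr7-positive LCs, Cdh1, Epcam and Ctnnd1 were the lowest of the 7, and none reached 2-fold. After thinning to 3000 UMIs this order did not hold: Cdh1 was at −1.005 and called lower, Ctnnb1 at −0.65, Epcam at −0.36 and Ctnnd1 at −0.03. Cdh1 stood at 204 CPM in Ccr7-positive and 304 CPM in Ccr7-negative LCs (−0.57, ratio 0.669, 0.601 to 0.743). Epcam stood at 1066 and 1485 CPM (−0.48, ratio 0.718, 0.686 to 0.752), and Ctnnd1 at 29.2 and 40.1 CPM (−0.40, ratio 0.727, 0.540 to 0.958). Of 6778 genes, 0.561% were called lower and 3.7% higher. Ctnna1 was at −0.04, Ctnnb1 at −0.09, Cldn1 at 0.14 and Itgae at 0.21. Cldn1 stood at 619 CPM (569 to 671) in the 48 LCs with 1 Ccr7 UMI and at 442 CPM (395 to 493) in the 29 with 4 or more, groups too small for a comparison. Itgae turned to −0.36 when LCs with at least 5 T cell UMIs were left out; those markers summed to 85.8 CPM in Ccr7-positive and 17.6 CPM in Ccr7-negative LCs. The 25 untreated Ccr7-positive LCs, too few for a comparison, held Epcam at 667 CPM (591 to 750) and Cdh1 at 143 CPM (109 to 185).

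A single Ccr7 UMI can come from free RNA, so LCs were also sorted by their number of Ccr7 UMIs. In the croton oil library Cdh1 was lower with each step, from 295 CPM in LCs without Ccr7 to 237 CPM (217 to 257) in the 152 LCs with 1 UMI and to 27.2 CPM (21.6 to 33.8) in the 206 with 4 or more. Epcam went from 1199 to 862 to 322 CPM over the same groups, Cldn1 from 557 to 514 to 316 CPM and Ctnnd1 from 32.0 to 21.0 to 8.4 CPM. Ctnnb1 stood at 72.6, 77.3 and 77.6 CPM, and Ctnna1 at 286, 293 and 219 CPM. Itgae did not follow the steps, at 38.2, 57.6 and 17.1 CPM. With Ccr7-positive set at 2 or more UMIs its change was −0.99, and it was then called lower with Epcam, Cdh1 and Ctnnd1. Of 6591 genes tested in that setting, 660 were called lower and 399 higher. Both Itgae and Ctnnd1 passed the 20 CPM minimum through Ccr7-negative LCs alone. LCs with 2 to 3 UMIs numbered 47, and held Cdh1 at 102 and Epcam at 554 CPM. Median depth over these 4 groups lay between 12935 and 14023 UMIs. Fscn1, an actin-bundling gene of migrating dendritic cells, was higher with more Ccr7, from 2.61 to 39.7 to 787 CPM. In the microneedle library each of the Ccr7-positive groups held under 50 cells; the 29 LCs with 4 or more Ccr7 UMIs held Cdh1 at 88.4, Epcam at 755, Ctnnb1 at 91.1 and Fscn1 at 722 CPM.

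The rule for LCs left out many Ccr7-positive cells because less than 2% of their UMIs came from MHC class II genes: 560 in the croton oil, 161 in the microneedle and 1 in the untreated library. They were looked at after this had been seen in the data. They held Fscn1 at 2152 and 1876 CPM, and 43.0% and 48.4% of them held a Cd207 UMI. They were called neither LCs nor another cell type here. Of the other cell types, the 9 T cell markers summed to 1.92 and 1.15 CPM, the 13 keratinocyte markers to 155 and 71.8 CPM and the 6 monocyte or macrophage markers to 51.5 and 102 CPM.

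Cdh1 was nearly absent from these cells in both libraries. It stood at 6.71 CPM (5.07 to 8.72, from 56 UMIs) after croton oil and at 6.11 CPM (3.49 to 9.92, from 16 UMIs) after microneedling, which is 43.9-fold (33.8 to 58.1) and 49.9-fold (30.7 to 87.2) below the Ccr7-negative LCs of the same library. Epcam remained at 455 and 465 CPM, or 0.380 and 0.313 of the level in Ccr7-negative LCs. Cldn1 stood at 132 and 118 CPM (ratios 0.237 and 0.242), Itgae at 13.9 and 16.8 CPM (0.364 and 0.450) and Ctnnd1 at 9.23 and 8.4 CPM (0.289 and 0.209). In each library these 5 members were called lower; Cdh1, Itgae and Ctnnd1 passed the 20 CPM minimum through Ccr7-negative LCs alone. Ctnna1 stood at 183 and 260 CPM (0.638 and 0.537) and was not called. Ctnnb1 stood at 87.1 and 90.1 CPM (ratios 1.2 and 1.05), so the cadherin-binding catenin was as high in value as in LCs whose Cdh1 level was far higher. The background was wide: 16.1% of 6786 genes were called lower and 10.7% higher in the croton oil library, and 17% of 7025 genes lower and 12.7% higher in the microneedle library.

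**Figure D4:**
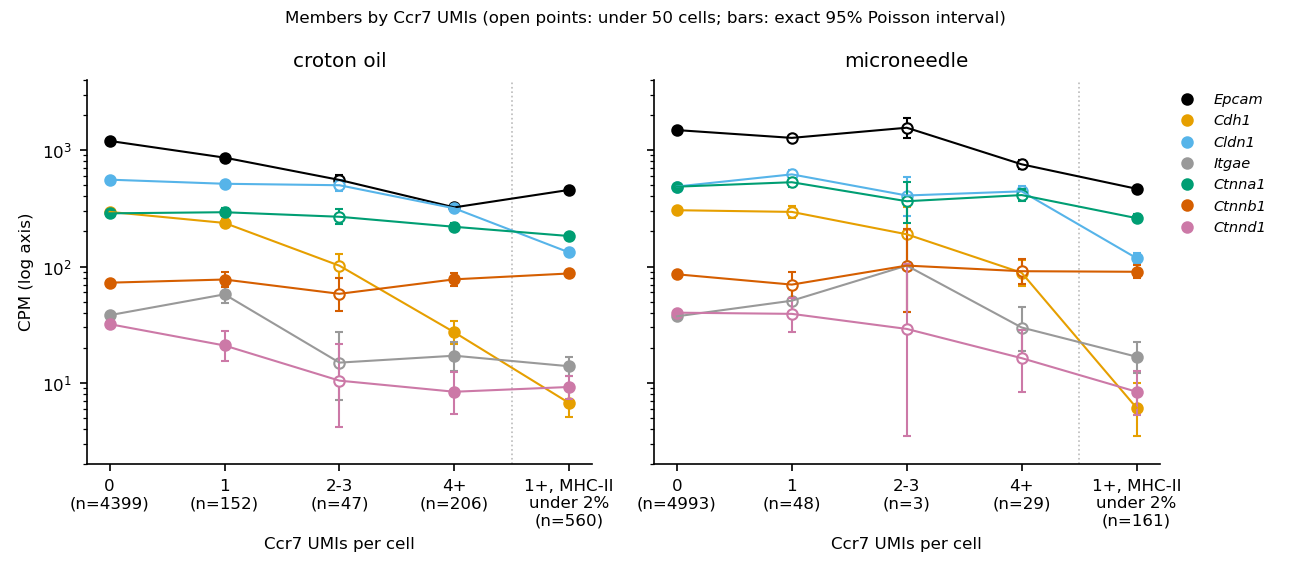
CPM (log axis) of each gene in LCs with 0, 1, 2 to 3 and 4 or more Ccr7 UMIs and, right of the dotted line, in Ccr7-positive cells with under 2% MHC class II UMIs, for croton oil and microneedle; bars are exact 95% Poisson intervals and open points are groups under 50 cells. In the croton oil library Cdh1 goes from 295 to 27.2 CPM and then 6.71 CPM, while Ctnnb1 stays between 58.3 and 87.1 CPM.

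The third comparison set Ccr7-negative LCs against keratinocytes, the cells on the other side of the E-cadherin contact, within each library. Epcam and Itgae were called higher in LCs of all 3 libraries. Epcam was at log2 1.61, 2.00 and 2.13 in the untreated, croton oil and microneedle library, from 504, 297 and 336 CPM in keratinocytes. Itgae was at 1.21, 2.10 and 1.17, from 7.63, 5.06 and 13.9 CPM, and passed the 20 CPM minimum through LCs alone, so that its calls are a description. The untreated value was 1.97 with an MHC class II minimum of 0.5%, and the microneedle value 2.175 after thinning. Cldn1 was higher at 0.68, 1.58 and 0.95 and was called in the croton oil library, and also in the microneedle library, at 1.55 with an MHC class II minimum of 0.5%, at 1.44 with keratinocytes at 2% keratin and at 1.07 after thinning; whether the libraries differ was not tested. Cdh1 was lower at −0.31, −1.07 and −0.80, from 474, 622 and 533 CPM in keratinocytes, and was called lower in the croton oil library. Of the catenins, Ctnna1 was at 0.69, −0.15 and 0.25, Ctnnb1 at −0.20, −0.99 and −0.83 and Ctnnd1 at −0.29, −0.67 and −0.20. The microneedle value of Ctnnd1 had a ratio interval of 0.727 to 1.01 and turned to 0.14 after thinning. With the MHC class II minimum at 0.5%, which left 95 of the 178 untreated keratinocytes, Ctnna1 was at 1.27 in the untreated library and called higher, as it was at 1.21 with keratinocytes at 2% keratin. Ctnnb1 was called lower in the croton oil library, where keratinocytes held 149 CPM. With keratinocytes at 2% keratin it was at −0.86 there and not called.

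In these comparisons 2, 3 and 2 members were called higher and 0, 2 and 0 lower. The background was 22.2%, 23.2% and 19.4% of genes called higher and 21.7%, 24.4% and 23.2% called lower, in the order untreated, croton oil, microneedle. With TMM scaling the called genes of the croton oil library split into 1452 higher and 2569 lower, against 1789 and 1889 with CPM. TMM moved the median of all genes from −0.03 to −0.28 there and from 0.09 to −0.05 in the untreated library; all 7 members kept their direction in each library. In the keratinocyte class Epcam was lower after treatment, at 0.589 (0.559 to 0.619) and 0.666 (0.621 to 0.714) of the untreated level, and Cdh1 higher, at 1.31 (1.26 to 1.37) and 1.12 (1.06 to 1.19). Cd74, H2-Aa, H2-Ab1 and H2-Eb1, MHC class II genes of LCs, stood in these keratinocytes at 15.6% to 17.3% of the LC level in the untreated, 7.15% to 8.54% in the croton oil and 12.4% to 14.0% in the microneedle library. The part of LC RNA in the Epcam ratios was not tested. The 178, 209 and 92 keratinocytes are those that the LC enrichment had left in the suspension.

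Free RNA of one cell type is found in droplets of another, and its level was read from genes that mark the source cells. In Ccr7-negative LCs 8 keratinocyte genes outside the class rule (Sfn, Krtdap, Dmkn, Lgals7, Perp, Trp63, Col17a1 and Dsg3) stood at medians of 0.251%, 0.301% and 0.176% of their keratinocyte level, and at no more than 1.26%. The members stood at 47.4% to 755% of theirs. The lowest of these shares was that of Cdh1 in the croton oil library. Cells that also met the keratin rule had been set aside from the LCs, which limits the shares of the keratinocyte genes. The part of free keratinocyte RNA in the member levels was not tested.

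LC genes were found in other cells at higher shares. In keratinocytes the 4 MHC class II genes stood at 15.6% to 17.3% of the LC level in the untreated, 7.15% to 8.54% in the croton oil and 12.4% to 14.0% in the microneedle library, and Epcam stood at 32.6%, 24.7% and 22.6%. In the 150 T cells of the croton oil library the MHC class II genes, by which LCs were chosen, stood at 16.6% to 21.4% of the LC level, Epcam at 15.9% and Cldn1 at 14.2%. The part of free RNA in these T cell levels was not tested. Cdh1 stood at 80.5% of the LC level in those T cells, at 237 CPM, and was detected in 48.2% of them after thinning. Itgae, which encodes the T cell partner of E-cadherin, stood at 350 CPM there. In neutrophils Ctnnb1 stood at 181 CPM after croton oil and 171 CPM after microneedling, above the LC level, where Epcam stood at 28.4 and 40.3 CPM.

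**Figure D5:**
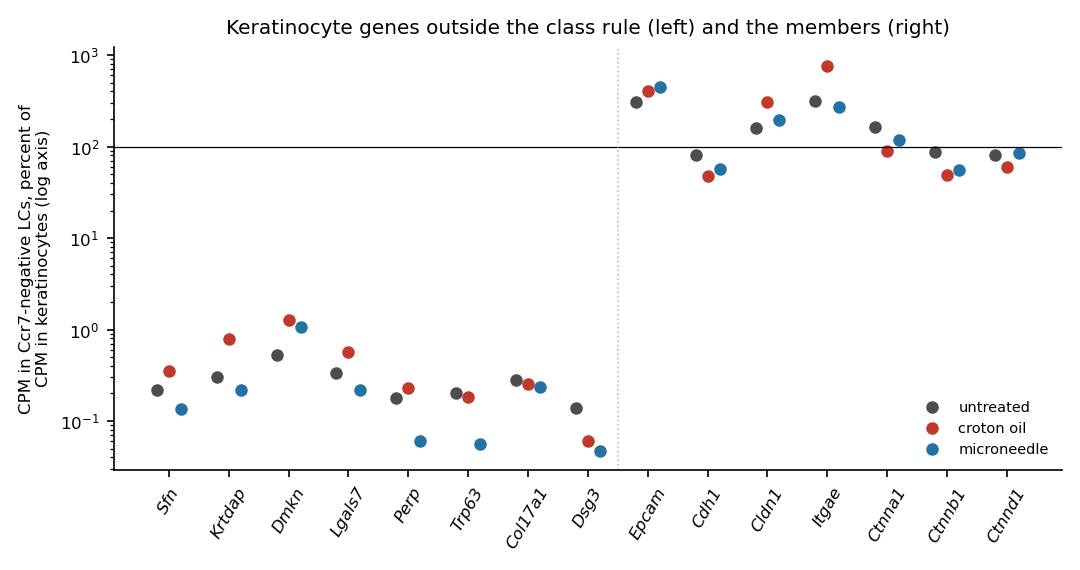
Level in Ccr7-negative LCs as a percent of the keratinocyte level of the same library (log axis; line at 100), for 8 keratinocyte genes outside the class rule (left) and the 7 adhesion genes (right). The keratinocyte genes lie at or below 1.26%, the members at 47.4% or more.

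The 8 further lists of 135 adhesion genes in all, 134 of them with a feature, placed the members among their partners. Of the 12 desmosome genes, none reached 20 CPM in the LC classes compared, so that the 10 that were tested against keratinocytes passed the minimum through keratinocytes alone. Their lower level in LCs was fixed by that minimum, and their count is not a result. Dsp, which anchors desmosomes to keratin, stood at 4.11, 2.81 and 1.55 CPM in LCs and at 1729, 1455 and 1256 CPM in keratinocytes. Jup, the catenin shared by desmosomes and adherens junctions, was lower in LCs at −2.94, −3.12 and −2.77. Of the cadherin, catenin and nectin list 1, 2 and 2 of 14, 13 and 13 tested genes were called higher in LCs and 8, 7 and 6 lower, most of the latter having passed the minimum through keratinocytes alone, beside 22.2%, 23.2% and 19.4% of all genes called higher and 21.7%, 24.4% and 23.2% lower. Pvr, which encodes the nectin-like poliovirus receptor, was higher in LCs of every library, at 1.97, 2.42 and 2.18.

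Tight junction and EpCAM partner genes were mixed. The claudin genes Cldn7 and Cldn4 were scarce in LCs: Cldn7, whose protein binds EpCAM, stood at 2.35, 2.78 and 2.25 CPM, and Cldn4 at 0.344, 0.355 and 0.229 CPM, against 132, 66.7 and 42.5 CPM in keratinocytes. The polarity gene Pard3 was lower in LCs at −5.77, −5.23 and −5.67. Tspan8, a tetraspanin that associates with EpCAM, was higher in LCs at 2.29, 2.56 and 1.77. Adam10, a protease that cleaves E-cadherin, stood at 67.4, 59.8 and 63.2 CPM in LCs and was not called against keratinocytes or between treatments. Itgb7, the partner of Itgae, was called higher in LCs of each library at 0.97, 1.94 and 1.24, and stood at 41.9, 50.2 and 54.4 CPM there; in the untreated and croton oil libraries it passed the 20 CPM minimum through LCs alone.

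Zeb1 and Zeb2 repress Cdh1, and Twist1 is another repressor of the epithelial program. Zeb1 was higher in LCs than in keratinocytes at 2.24, 3.02 and 2.40, and stood at 532, 793 and 812 CPM in LCs. Both treated libraries lay above the untreated one, at ratios of 1.49 (1.47 to 1.51) and 1.53 (1.51 to 1.54). Zeb2 in Ccr7-negative LCs stood at 1.14 CPM without treatment, at 41.4 CPM after croton oil and at 11.5 CPM after microneedling, which gave a log2 change of 2.92 after croton oil, and was below the 20 CPM minimum in the microneedle comparison. Twist1 went from 1.91 to 38.4 CPM after croton oil, a change of 2.65. Snai1 and Snai2 stayed below 3 CPM in LCs of every library. Esrp1, an epithelial splicing factor, stood at 1.27, 0.436 and 0.316 CPM in LCs and at 298, 156 and 203 CPM in keratinocytes. Against keratinocytes 2 of 10, 5 of 13 and 2 of 11 tested genes of this list of repressors and epithelial regulators were called higher in LCs and 6, 7 and 7 lower, beside 22.2%, 23.2% and 19.4% of all genes called higher and 21.7%, 24.4% and 23.2% lower. Of those called lower, all but Klf4 passed the minimum through keratinocytes alone. Zeb2 and Twist1 passed the minimum between treatments only through the croton oil library, so no count of the list is read there.

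In the Ccr7-positive cells with under 2% MHC class II, where Cdh1 was lowest, Zeb1 stood at 1203 and 1168 CPM (ratios of 1.52 and 1.44 to Ccr7-negative LCs). Zeb2 stood at 135 and 142 CPM (ratios of 3.25 and 12.3). Itgb7 was lower there with Itgae, at 5.15 and 5.73 CPM, while Itgb1, the common beta chain of matrix-binding integrins, was higher at 368 and 451 CPM (ratios of 1.86 and 2.74). Itga4, which pairs with beta 1 or beta 7, stood at 940 and 1628 CPM, against 1.61 and 8.93 CPM in Ccr7-negative LCs. Among LCs under the rule, Itga4 was higher in Ccr7-positive ones at 4.40 after croton oil and 4.32 after microneedling. The list that holds Zeb1 and Zeb2 had 0 of 7 tested genes called in croton oil Ccr7-positive LCs. Its median was 0.11, with −0.08 over all genes. In the microneedle library 1 of 6 was called higher and 0 lower, with a median of 0.22 and −0.02 over all genes. Integrin genes lower in croton oil Ccr7-positive LCs were Itgam at −1.33, Itgb2 at −1.03 and Itgax at −0.93, which encode leukocyte integrin chains. Of 9 integrin genes tested there, 1 was called higher and 3 lower (median −0.30, −0.08 over all genes), and of 9 EpCAM partner and protease genes 2 were called lower, Tspan8 at −1.37 and Spint1, an inhibitor of matriptase, at −1.31; over all genes 4.19% were called higher and 3.4% lower. In the microneedle library 3 of 10 integrin genes were called higher, Itga4, Itga5 and Itgb8, and none lower (median 0.13, −0.02 over all genes), beside 3.7% and 0.561% of all genes. Of the integrin genes called in either library, all but Itgax passed the minimum through 1 of the classes alone, the one in which they were higher.

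Between treatments 7.01% of all genes were called higher and 7.33% lower after croton oil, and 4.5% and 2.5% after microneedling. After croton oil Itga6, a chain of the receptor for laminin, was lower at −1.49 (42.6 CPM in untreated, 11.9 in croton oil LCs) and Itga9 higher at 1.94, and Ccnd1, a target gene of beta-catenin, was lower at −1.06 (120 CPM in untreated, 55.05 in croton oil LCs). On the list of beta-catenin destruction and target genes 1 of 11 was called, near the share over all genes, and the median was −0.33, with −0.04 over all genes. Genes called after microneedling included Pvr, higher at 1.32 (103 CPM in untreated, 265 in microneedle LCs), St14, the protease matriptase that cleaves EpCAM, at 1.08 (141 and 303 CPM) and Src, a kinase that acts on junctions, at 1.29. Itga6, Itga9 and Src reached 20 CPM only in the library in which they were higher. No gene was called after croton oil on the lists of cadherins, catenins and nectins (8 tested), tight junction genes (6), EpCAM partners and proteases (9) and cadherin turnover genes (11). Jup was lower at −0.47 after croton oil and −0.26 after microneedling, and was not called.

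Epcam and Cdh1 were slightly lower in cycling LCs of each library. Ccr7-negative LCs with at least 2 UMIs of Top2a and Mki67 held Epcam at 1464, 1116 and 1405 CPM in the untreated, croton oil and microneedle library, and LCs without such UMIs at 1572, 1221 and 1536 CPM. Cdh1 stood at 367, 286 and 289 CPM in the former and 388, 301 and 315 CPM in the latter. The split used UMI counts without thinning, and the part of cell depth in these differences was not tested. Cells with at least 2% MHC class II but no Cd207 or Ccr7 UMI, outside the rule, numbered 277, 1415 and 276. They held Epcam at 1452, 957 and 1477 CPM, Cdh1 at 424, 270 and 372 CPM and Ctnna1 at 501, 277 and 380 CPM, with the croton oil library again the lowest.

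Across the 8 combinations of library and class with at least 50 cells, each member was set beside 9142 genes by Pearson's r of log2(CPM + 5). The 8 points share 3 libraries and are no independent samples, so r is a description. Epcam was most like Hmga2-ps1, Arhgap39 and Adam22 (r of 0.989 to 0.992), Cdh1 like Hook1, Cbr3 and Luzp1 (0.971 each) and Cldn1 like Grap2, Gm15417 and Zswim8 (0.990 to 0.992). Itgae was most like Vav1, Mroh1 and Slc41a2 (0.988 to 0.989), Ctnna1 like Elf1, Brd8 and Ankra2 (0.967 to 0.986), Ctnnb1 like Rps27, Pabpc1 and Rplp2 (0.980 to 0.981) and Ctnnd1 like Znrf2, Atg101 and Pank1 (0.956 to 0.964). Among the members r was highest for Cldn1 with Itgae (0.93), Epcam with Cldn1 (0.91), Cdh1 with Ctnnd1 (0.86) and Cdh1 with Ctnnb1 (0.85). It was lowest for Itgae with Ctnnb1 (−0.89) and Cldn1 with Ctnnb1 (−0.83), and was −0.39 for Epcam with Cdh1.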

How the data were processed

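The deposited values are UMI counts per gene and cell, whole numbers without normalization; per the file headers the authors obtained these counts from Cell Ranger 8.0.0, on GRCm39, per the submitters' processing notes; the annotation release is not given in the sources used here. Cells were kept with at least 500 genes and at most 10% mitochondrial UMIs. Scrublet (scanpy 1.11.5) marked 2, 0 and 0 cells by its automatic threshold, so the highest-scoring cells were removed at 0.8% per 1000 cells (773, 532 and 376), leaving 9054, 7626 and 6479. T cells had at least 5 UMIs over 7 T cell genes, and neutrophils at least 1% of UMIs from S100a8 and S100a9. The 3 matrices held 127666928, 119360952 and 117178809 UMIs. Counts were summed per class and expressed as CPM with exact Poisson intervals; ratio intervals are exact conditional ones and shares have exact binomial (Clopper-Pearson) ones. The 10 genes of the class rules were left out of counts of genes. Groups under 50 cells are given as levels, with no fold change. The fold comparison was tested on simulated data. TMM factors came from edgeR 4.0.16.

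Named genes were the 7 members, 11 fixed partner and regulator genes and, per list and comparison, up to 4 genes furthest by log2 change among those called, of which some are not reported here; Itga4, Itgb7, Itgb1, Zeb1 and Zeb2 in the Ccr7-positive cells under 2% MHC class II, Ctnna1 in cells without Cd207, Cldn4 beyond its call, and Fscn1 were named after their values were seen. The members and lists were chosen with earlier results of these data known, and 2 of the 18 alternatives, with the comparison of Ccr7-positive cells under 2% MHC class II, were added after seeing the data. Alternatives changed scaling, minimum CPM, pseudocount, depth, doublet removal and each class rule.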

Additional observations from a re-analysis of the deposited data

Results flagged for a closer look

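Cldn1 went in opposite directions with Ccr7 in the 2 treated libraries: Ccr7-positive LCs lay below Ccr7-negative ones by a log2 change of −0.43 after croton oil (ratio 0.741, 0.711 to 0.772) and above them by 0.14 after microneedling (ratio 1.10, 1.03 to 1.18). The difference between the libraries was not tested. In the microneedle library the 48 LCs with a single Ccr7 UMI held Cldn1 at 619 CPM (569 to 671), the 3 LCs with 2 to 3 UMIs at 407 CPM (271 to 589) and the 29 with 4 or more at 442 CPM (395 to 493), groups too small for a comparison. The Ccr7-positive cells under 2% MHC class II of that library held 118 CPM, against 486.5 CPM in LCs without Ccr7. The microneedle value was −0.05 when the MHC class II minimum was lowered to 0.5%.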

How the results depend on the processing

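Of 770 values of the members under the alternatives, 759 kept their direction: 112 of 112 for croton oil against untreated, 109 of 112 for microneedle against untreated, 111 of 112 and 92 of 98 for Ccr7, and 112 of 112, 112 of 112 and 111 of 112 against keratinocytes. Part of these values could not turn, so the counts overstate what was tried. A pseudocount cannot change a direction. The 2% keratin minimum for keratinocytes left the LC classes as they were. Setting Ccr7-positive at 2 UMIs, or requiring a Cd207 UMI, left Ccr7-negative LCs and keratinocytes as they were. Members called lower after croton oil numbered 1 in place of 2 with TMM or median-of-ratios scaling, with cells of both rules kept in both classes, with MHC class II at 5%, and with T cell UMIs left out. Members called lower with Ccr7 in the croton oil library numbered 1 without doublet removal, 2 after thinning and 4 at 2 Ccr7 UMIs, where Itgae was added, and in the microneedle library 1, Cdh1, after thinning. Over all genes, 133 of 6554, 292 of 6618 and 660 of 6591 were lower under these croton oil settings. In the microneedle library 389 of 7073 were lower after thinning. Against keratinocytes, members called lower after croton oil numbered 1 with keratin at 2% or MHC class II at 0.5%, and 3 after thinning, and 1 in the microneedle library with totals without mitochondrial and ribosomal genes. With a minimum of 50 CPM, members called higher than in keratinocytes numbered 1 in the untreated and 1 in the microneedle library, because Itgae was then not tested. They numbered 3 in each of these libraries with keratin at 2% or MHC class II at 0.5%, and 3 in the microneedle library after thinning.

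Counts of all genes moved with the minimum by construction. At a minimum of 50 CPM, and with none, genes called higher numbered 316 and 3808 and lower 263 and 6025 for croton oil, and 195 and 4881, and 79 and 3468, for microneedle. For Ccr7 they were 179 and 3433 higher and 134 and 6508 lower after croton oil, and 126 and 2794, and 11 and 9654, after microneedling. Against keratinocytes they were 1136 and 10387 higher and 1034 and 6245 lower in the untreated library, and 1189 and 9452, and 1110 and 6457, in the croton oil library. In the microneedle library 9852 were higher with no minimum, and 1026 and 6809 were lower. Genes lower with Ccr7 in the croton oil library numbered 133 without doublet removal, 660 at 2 Ccr7 UMIs and 398 with MHC class II at 0.5%. In the microneedle library thinning gave 522 higher and 389 lower, and MHC class II at 0.5% gave 81 lower; the cause was not tested. Ccr7-positive LCs of the microneedle library were too few for MHC class II at 5% and for 2 Ccr7 UMIs. No paired analysis between treatments was possible because each treatment group is 1 library. LCs and keratinocytes are paired by library and were compared within each. A test over the 3 libraries, which differ in treatment, was not run.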
